A study of Mus musculus with 4 samples.

Results

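The genes described here are 34 mouse genes known from late spermatocytes and spermatids, the cells in which sperm are made after the first stages of meiosis. They are a list of names, drawn up with earlier results of these data known and with no measured value in its rule, and 33 of the 34 are in the deposited table of 36088 genes. Piwil3, the remaining name, has no row there and was not analysed here. Expression was measured by RNA sequencing in male germ cells of wild-type mice, sorted from fetal testes held in culture, with a sample title that gives day 14. The cultures were given CBR-5884, which the series' text calls a serine metabolism inhibitor, in 2 libraries, or DMSO as the control in the other 2. All cells were wild type and cultured, so no group of freshly isolated germ cells was compared. The labels do not state the age of the testes, the dose or the sorting marker. The comparison asks whether genes of late germ cell differentiation differed when serine metabolism was inhibited.

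Male germ cells pass from spermatogonia through meiosis as spermatocytes, and then reshape as haploid spermatids. In round spermatids the transcription factors Crem and Rfx2 switch on genes of the acrosome and the flagellum, and Brdt, a bromodomain protein that reads acetylated histones, acts in both spermatocytes and spermatids. In elongating spermatids the transition proteins and then the protamines take the place of histones, which packs the DNA of the sperm head. Fetal male germ cells have not entered meiosis in the body.

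Levels are in TPM, by definition the transcript abundance scaled to gene length and library total, and can be compared between genes. The deposited values summed to 966761 in CBR-5884 library 4 and to between 997741 and 1002976 in the other libraries, so the totals were not quite equal. Of the 33 genes in the table, 16 had a mean over the 4 libraries of at least 1 TPM, 17 were below it, and 3 of those 17 were listed at 0 in every library. A mean of at least 1 TPM was reached by 41.3% of all genes in the table and by 61.4% of protein-coding genes. The lowest of the 16 was Tssk1 at 1.33 TPM and the highest of the 17 was Prm1 at 0.505 TPM, and Tssk1 and Tssk2 were each below 1 TPM in CBR-5884 library 2. Most of the signal came from few genes, since Slc25a31 alone made up 42.4% of the summed TPM and Slc25a31, Odf2 and Brdt together made up 75.2%. The 33 genes summed to 267 and 258 TPM with CBR-5884, against 253 and 247 TPM with DMSO. Pairs of values are given throughout as library 2 and then library 4, the numbers in the table's library names.

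The median of these genes lay below the medians of a pachytene list and an early meiotic list in the same libraries. The pachytene list also holds late spermatocyte genes, so it is not all of an earlier stage. The ranges overlapped, with the 33 genes at 0 to 109 TPM, the pachytene list at 0.0364 to 545 TPM and the early list at 2.34 to 253 TPM. The median level was 0.505 TPM over the 33 genes. It was 4.55 TPM over 15 genes of pachytene and late spermatocytes, of which 11 reached 1 TPM, and 46.5 TPM over 20 genes of early meiotic prophase, all of which did. The highest of the early genes was Stag3, a meiotic cohesin subunit, at 253 TPM, followed by the synaptonemal complex genes Syce2 at 202 TPM and Sycp1 at 193 TPM. The highest of the pachytene list were Taf7l at 545 TPM, Tbpl1 at 112 TPM and Tcfl5 at 110 TPM, all regulators of transcription. The other end of that list held 4 genes under 1 TPM, Tdrd6 at 0.791, Pou5f2 at 0.358, Rfx4 at 0.0876 and Adam2 at 0.0364 TPM. A further 30 spermatid genes, none of them among the 34, were also chosen with earlier results of these data known. They lay at similar levels, with 12 at 1 TPM or more, 3 listed at 0 and a median of 0.343 TPM. Pdha2, a testis form of the pyruvate dehydrogenase subunit, was the highest of these at 26.5 TPM, followed by the RNA-binding protein gene Ybx2 at 21.3 TPM and Spata6 at 18.9 TPM. In bulk RNA a low level from many cells and a high level from few cells cannot be told apart.

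**Figure D1:**
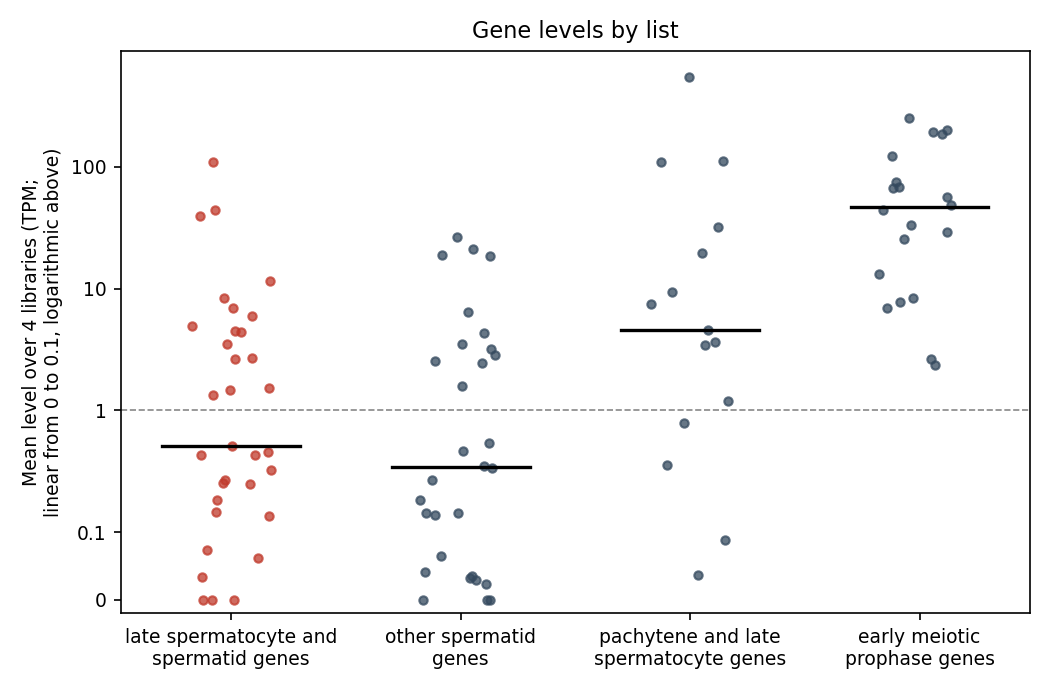
Mean level over the 4 libraries, in TPM, of each gene in 4 lists; each point is a gene, thick lines are medians and the dashed line marks 1 TPM. The late spermatocyte and spermatid genes (median 0.505 TPM) spread over both sides of the line, as do the other spermatid genes (0.343 TPM), while all 20 early meiotic genes lie above it.

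The sorted cells carried germ cell markers at high levels in all 4 libraries. All 6 markers of spermatogonia, the stage before meiosis, reached 1 TPM, from Id4 at 23.6 TPM to Stra8 at 393 TPM. Their median was 91.3 TPM, above the 46.5 TPM of the early meiotic genes. The 6 general germ cell genes, among them Dazl and Ddx4, summed to 2170 and 2160 TPM with CBR-5884, against 2140 and 2130 TPM with DMSO. The 25 markers of Sertoli, Leydig, peritubular, endothelial and macrophage cells summed to 166 and 161 TPM with CBR-5884, against 191 and 133 TPM with DMSO, and 19 of the 25 reached 1 TPM. Of 7 Sertoli cell markers 6 reached 1 TPM, led by Amh at 27.8 TPM and Cldn11 at 22.6 TPM, and Rhox5 was listed at 0. Of 6 Leydig cell markers 2 reached 1 TPM, Nr5a1 at 5.32 TPM and Star at 3.05 TPM, and 4 were under it. The share of these other cells in any level reported here was not tested. The depth, estimated from the value of a single read in each library, was about 28200000 and 25300000 reads with CBR-5884 and 24600000 and 22400000 reads with DMSO.

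Promoter sequences of 6 of the genes are printed here, those of 4 genes at 1 TPM or more, among them Slc25a31, the highest of the 33, and those of Prm1 and Tnp1, the highest packaging genes, both under 1 TPM. Each line gives bases 250 before to 50 after the annotated start on RefSeq's GRCm38.p6 assembly, 5′ to 3′ on the gene's own strand. Capitals mark TGACG on either strand (CGTCA on the other), the core of the cAMP response element that Crem and related factors bind, and CACGTG, an E-box.
Slc25a31 (chr3:40708621-40708920, plus strand): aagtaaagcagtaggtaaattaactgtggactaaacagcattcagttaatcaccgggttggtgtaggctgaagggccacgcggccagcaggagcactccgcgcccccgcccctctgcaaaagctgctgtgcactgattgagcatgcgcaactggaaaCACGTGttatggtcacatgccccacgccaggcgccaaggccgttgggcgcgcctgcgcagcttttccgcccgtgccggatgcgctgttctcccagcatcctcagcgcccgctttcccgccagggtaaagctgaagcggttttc
Brdt (chr5:107330944-107331243, plus strand): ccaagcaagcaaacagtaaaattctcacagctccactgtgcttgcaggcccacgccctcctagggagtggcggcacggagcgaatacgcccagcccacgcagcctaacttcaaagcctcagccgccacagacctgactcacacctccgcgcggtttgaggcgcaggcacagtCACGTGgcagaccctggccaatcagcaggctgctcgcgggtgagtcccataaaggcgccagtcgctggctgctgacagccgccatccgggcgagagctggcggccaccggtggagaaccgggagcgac
Spaca1 (chr4:34050018-34050317, minus strand): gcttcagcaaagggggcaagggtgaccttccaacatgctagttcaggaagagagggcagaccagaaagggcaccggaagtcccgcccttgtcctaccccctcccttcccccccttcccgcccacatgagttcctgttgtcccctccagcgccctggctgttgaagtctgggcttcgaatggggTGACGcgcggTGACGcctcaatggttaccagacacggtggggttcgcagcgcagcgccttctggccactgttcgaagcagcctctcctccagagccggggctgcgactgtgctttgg
Izumo1 (chr7:45621561-45621860, plus strand): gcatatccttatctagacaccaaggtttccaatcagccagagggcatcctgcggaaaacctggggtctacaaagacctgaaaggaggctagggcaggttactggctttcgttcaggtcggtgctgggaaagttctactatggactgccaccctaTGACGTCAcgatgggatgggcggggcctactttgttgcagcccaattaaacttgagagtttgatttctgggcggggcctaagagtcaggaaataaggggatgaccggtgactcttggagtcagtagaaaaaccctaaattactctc
Tnp1 (chr1:73015850-73016149, minus strand): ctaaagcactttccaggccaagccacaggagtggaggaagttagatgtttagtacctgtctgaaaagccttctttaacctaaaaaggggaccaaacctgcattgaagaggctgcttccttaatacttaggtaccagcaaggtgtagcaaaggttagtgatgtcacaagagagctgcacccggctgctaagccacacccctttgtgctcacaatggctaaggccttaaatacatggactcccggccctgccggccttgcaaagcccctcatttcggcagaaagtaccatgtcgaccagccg
Prm1 (chr16:10796774-10797073, minus strand): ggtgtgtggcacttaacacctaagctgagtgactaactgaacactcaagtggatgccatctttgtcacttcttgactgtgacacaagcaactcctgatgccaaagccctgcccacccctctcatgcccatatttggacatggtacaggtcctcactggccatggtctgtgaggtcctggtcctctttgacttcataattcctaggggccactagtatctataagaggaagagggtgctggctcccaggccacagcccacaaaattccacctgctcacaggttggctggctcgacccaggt

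None of the 5 genes of sperm chromatin packaging reached 1 TPM. Prm1, a protamine, had 0.599 and 0.670 TPM in the CBR-5884 libraries, against 0.237 and 0.512 TPM in the DMSO libraries. Tnp1, a transition protein, had 0.216 and 0.592 TPM with CBR-5884 and 0.754 and 0.271 TPM with DMSO. For genes with a single transcript in the table the deposited values could be turned back into reads, and Tnp1 then rested on 2 and 5 reads in the CBR-5884 libraries and 6 and 2 reads in the DMSO libraries. Its groups overlapped, and those of Prm1 did not. Tnp2, the other transition protein gene, had 0 reads in both CBR-5884 libraries, against 6 and 0 reads in the DMSO libraries. Prm3, which lies beside Prm1, Prm2 and Tnp2 on chromosome 16, had 0 reads in both CBR-5884 libraries and 1 and 0 reads in the DMSO libraries. Prm2, the second protamine of sperm, had 0.201 and 0 TPM with CBR-5884 and 0.341 and 0 TPM with DMSO. Genes this low did not enter the test. None was called when the filter on low values was left out, nor was any other of the 26138 genes in that fit. The fit adds 1 to each TPM, which shrinks differences at levels this low, so it could hardly have called these genes.

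**Figure D2:**
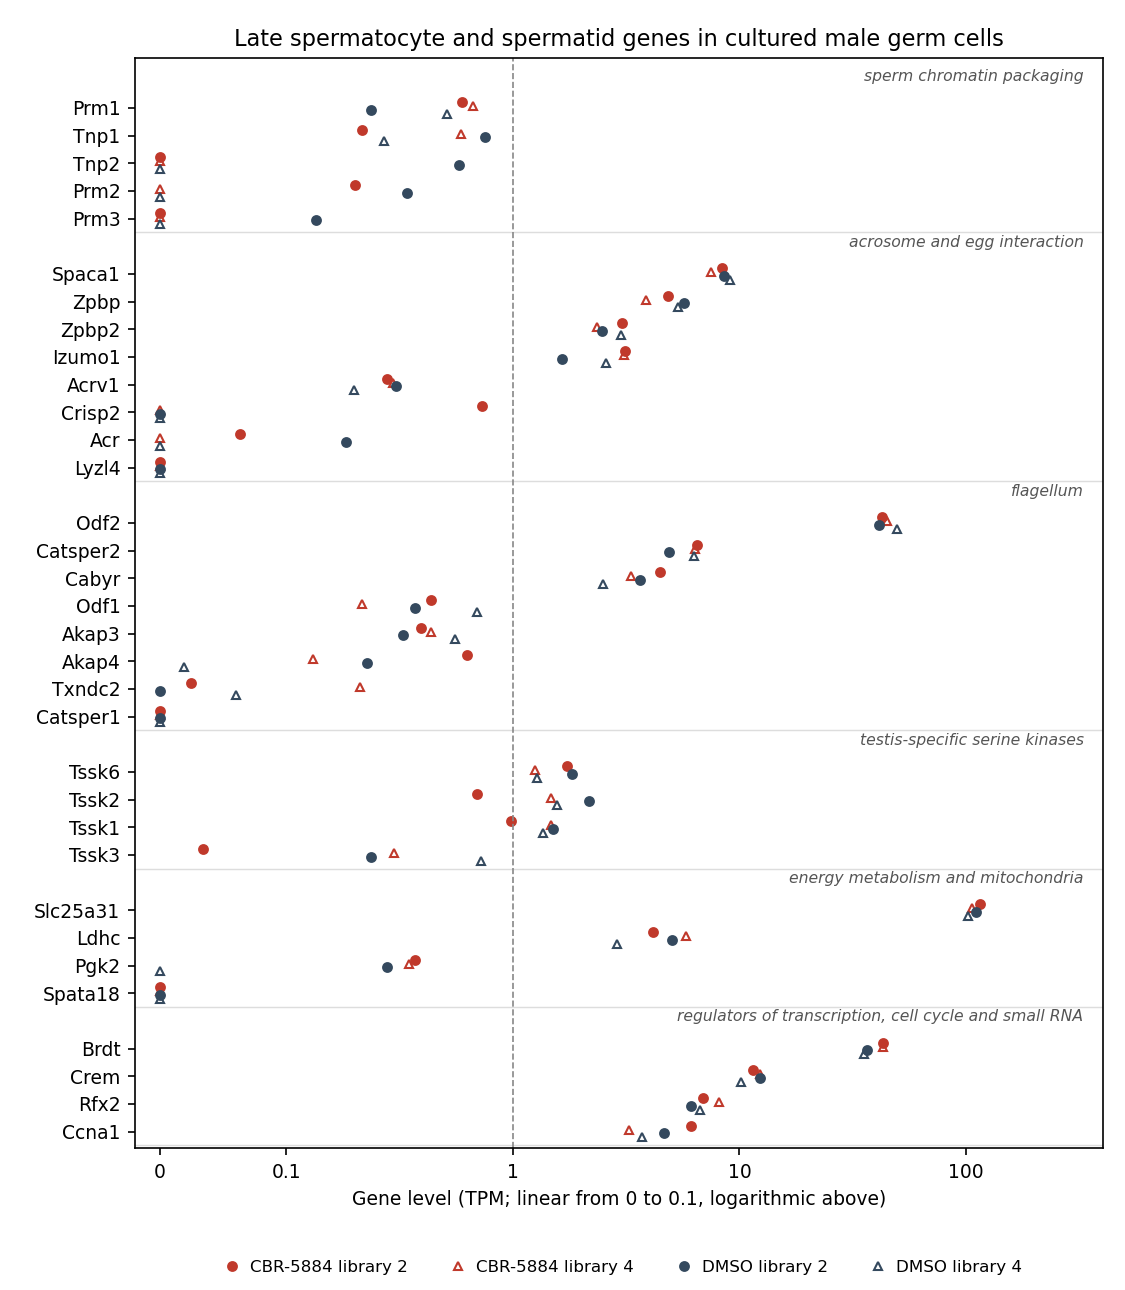
Level of each of the 33 genes in each library, in TPM, grouped by role; red symbols are CBR-5884 libraries, dark symbols DMSO libraries, circles library 2 and triangles library 4, and the dashed line marks 1 TPM. The 5 chromatin packaging genes lie left of the line in all libraries, while Slc25a31, Odf2, Brdt and Crem lie at or above 10 TPM in all libraries.

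Genes of the acrosome and of egg binding were split, with 4 of 8 at 1 TPM or more. Spaca1, an acrosome membrane protein needed to shape the acrosome, was the highest, with 8.37 and 7.49 TPM in the CBR-5884 libraries, against 8.57 and 9.07 TPM in the DMSO libraries (log2 fold change −0.14, 95% interval −0.57 to 0.29, and −0.21 to −0.07 with each library left out). Zpbp, a zona pellucida binding protein of the acrosome, had 4.85 and 3.86 TPM with CBR-5884 and 5.71 and 5.38 TPM with DMSO (log2 fold change −0.30, 95% interval −0.83 to 0.24, and −0.43 to −0.16 with each library left out). Both CBR-5884 libraries lay below both DMSO libraries for these genes, by less than the test could call. Where the groups do not overlap, leaving out any library cannot change the sign. For such genes, here and below, a range on a single side of 0 is no separate support. Its relative Zpbp2 had 3.03 and 2.35 TPM with CBR-5884 and 2.47 and 2.99 TPM with DMSO, and the groups overlapped (log2 fold change −0.02, or 0.00 with library totals made equal). Izumo1, the sperm protein that binds its receptor on the egg, had 3.13 and 3.11 TPM with CBR-5884, above the 1.65 and 2.59 TPM with DMSO (log2 fold change 0.42, 95% interval −0.25 to 1.08, and 0.20 to 0.63 with each library left out). Izumo1 shares 20% of its 31-base words with its neighbour Rasip1, whose exons overlap it on the same strand, so its level is uncertain.

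The other 4 genes of this role were near 0. Acrv1, an acrosomal vesicle protein, had 0.278 and 0.295 TPM in the CBR-5884 libraries, against 0.306 and 0.199 TPM in the DMSO libraries. The protease gene Acr and the sperm surface protein gene Crisp2 had means of 0.0617 and 0.183 TPM. Crisp2 was above 0 in CBR-5884 library 2 alone, at 0.734 TPM. Lyzl4, a lysozyme-like gene, was listed at 0 in all 4 libraries.

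Among the 8 flagellum genes, Odf2, Catsper2 and Cabyr passed 1 TPM. Odf2 encodes a protein of the outer dense fibres of the sperm tail that is also a part of centrioles in dividing cells. It had 42.5 and 44.9 TPM with CBR-5884 and 41.4 and 49.5 TPM with DMSO, and the CBR-5884 values lay within the DMSO range (log2 fold change −0.05, 95% interval −0.34 to 0.24). The table holds 25 transcripts of Odf2 but 1 value for the gene, so the centriole and sperm forms were not told apart. Catsper2, a subunit of the sperm calcium channel, had 6.5 and 6.36 TPM with CBR-5884, above the 4.88 and 6.29 TPM with DMSO (log2 fold change 0.18, 95% interval −0.33 to 0.70, and 0.03 to 0.34 with each library left out). Catsper1, the subunit that joins it in the same channel, was listed at 0 in every library. Cabyr, a calcium-binding protein of the fibrous sheath, had 4.45 and 3.34 TPM with CBR-5884 and 3.65 and 2.49 TPM with DMSO, and the groups overlapped (log2 fold change 0.27, and 0.07 to 0.48 with each library left out).

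The other 5 flagellum genes were under 1 TPM. Odf1, the major outer dense fibre protein, had 11 and 5 reads in the CBR-5884 libraries, against 8 and 14 reads in the DMSO libraries, or 0.217 to 0.697 TPM over the 4. Akap3, an anchor of the fibrous sheath, had 0.392 and 0.438 TPM with CBR-5884 and 0.327 and 0.558 TPM with DMSO. Its X-linked partner Akap4 ranged from 0.0189 TPM in DMSO library 4 to 0.631 TPM in CBR-5884 library 2. Txndc2, a thioredoxin of the sheath, had a mean of 0.0740 TPM.

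The testis-specific serine kinases act in spermatids and in sperm. Tssk6, needed for chromatin condensation in spermatids, had 1.74 and 1.25 TPM with CBR-5884 and 1.83 and 1.28 TPM with DMSO. It shares 26.4% of its 31-base words with Ndufa13, a nuclear gene for a mitochondrial protein that overlaps it on the other strand. The labels do not say whether reads were assigned by strand. Tssk2 had 0.699 and 1.47 TPM with CBR-5884, below the 2.18 and 1.56 TPM with DMSO (log2 fold change −0.48, 95% interval −1.29 to 0.33), and its neighbour Tssk1 had 0.984 and 1.47 TPM with CBR-5884 and 1.51 and 1.36 TPM with DMSO. The reads behind Tssk2 were 22 and 43 with CBR-5884, against 60 and 40 with DMSO, and 12.5% of its words also occur in Tssk1. Tssk2 had the largest absolute log2 fold change of the 16 genes, and CBR-5884 library 2 was its lowest library; the value was −0.21 to −0.75 with each library left out in turn. Tssk3 had 1 and 8 reads with CBR-5884 and 6 and 17 reads with DMSO.

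Slc25a31, the germ cell form of the mitochondrial ADP/ATP carrier, was by far the most abundant of the metabolic genes. The gene lies at chr3:40708855-40726096 on the plus strand (mm10) and has 6 exons. It had 115 and 106 TPM in the CBR-5884 libraries, against 111 and 102 TPM in the DMSO libraries (log2 fold change 0.06, 95% interval −0.15 to 0.27, and 0.00 to 0.11 with each library left out), which placed it at rank 2048 of all genes by mean. The groups overlapped, and in both the library numbered 2 was the higher. Ldhc, the germ cell lactate dehydrogenase, had 4.15 and 5.84 TPM with CBR-5884 and 5.03 and 2.87 TPM with DMSO, again with overlap. Pgk2, a phosphoglycerate kinase made from an intronless copy of Pgk1, had 14 and 12 reads with CBR-5884 and 9 and 0 reads with DMSO, or 0.372 TPM at most. Spata18, a gene of mitochondrial quality control, was listed at 0 in all libraries.

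Set beside their widely expressed relatives, these genes held very different shares. Slc25a31 made up 34.1 and 31.7% of the summed TPM of Slc25a31, Slc25a4 and Slc25a5 in the CBR-5884 libraries and 31.3 and 35.1% in the DMSO libraries. Its level was above that of Slc25a4, which had 82.8 and 74.1 TPM with CBR-5884 and 81.8 and 52.3 TPM with DMSO, and below that of Slc25a5, at 140 and 155 TPM with CBR-5884 and 161 and 137 TPM with DMSO. Slc25a31 and Slc25a4 share no 31-base word with any other gene, whereas 49.4% of those of Slc25a5 occur elsewhere. Ldhc made up 5.79 and 9.53% of the sum of Ldhc, Ldha and Ldhb with CBR-5884 and 7.04 and 6.11% with DMSO. Ldhb itself varied widely, with 45 and 27.6 TPM with CBR-5884 and 44.6 and 17.4 TPM with DMSO. Of the words of Ldhb 33.0% occur in other genes, as do 19.6% of those of Ldha, so the share of Ldhc is uncertain. Pgk2 made up at most 1.32% of the sum with Pgk1, which had a mean of 32.0 TPM, and 54.7% of the words of Pgk1 occur in other genes.

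**Figure D3:**
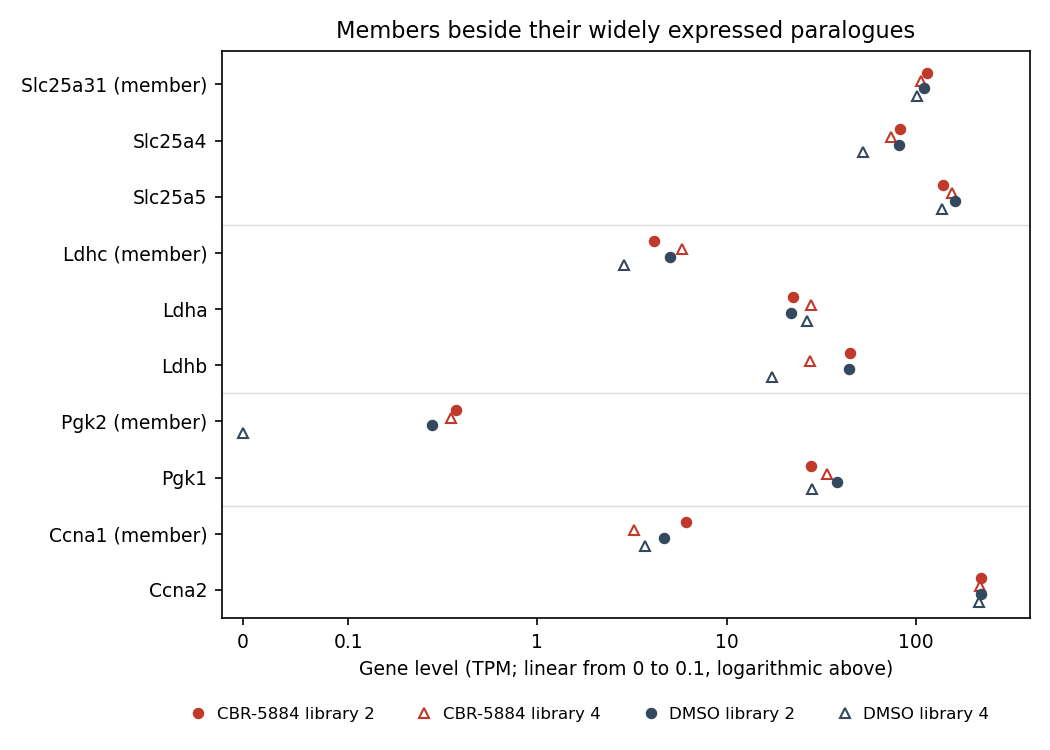
Levels in TPM of 4 of the genes and of their widely expressed paralogues in each library; red symbols are CBR-5884 libraries, dark symbols DMSO libraries, circles library 2 and triangles library 4. Slc25a31 lies between Slc25a4 and Slc25a5, while Ldhc, Pgk2 and Ccna1 lie below every paralogue shown with them.

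All 4 regulators in the table passed 1 TPM. Brdt lies at chr5:107331159-107387058 on the plus strand (mm10), with up to 19 exons in a transcript. Brdt had 43.0 and 42.8 TPM in the CBR-5884 libraries, above the 36.5 and 35.6 TPM in the DMSO libraries, and averaged 42.9 ± 0.201 TPM with CBR-5884 and 36.0 ± 0.681 TPM with DMSO (SD, n = 2 each). The log2 fold change was 0.25 (SE 0.09, 95% interval 0.01 to 0.48) and limma gave an unadjusted p = 0.0407 and an adjusted p = 0.998, so the gene did not pass the threshold. No other gene of the 16 had an unadjusted limma p below 0.05, and 3.66% of all genes tested had one. With each library left out the log2 fold change of Brdt was 0.23 to 0.26. This narrow range follows from the close values within each group and is no separate support.

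Crem had 11.5 and 12.3 TPM with CBR-5884 and 12.3 and 10.2 TPM with DMSO, so the groups overlapped (log2 fold change 0.08, 95% interval −0.33 to 0.49). Crem makes both activators and repressors from 1 gene, and with 39 transcripts under 1 gene value the forms were not told apart. Rfx2 had 6.92 and 8.12 TPM with CBR-5884, above the 6.11 and 6.68 TPM with DMSO (log2 fold change 0.20, 95% interval −0.27 to 0.67, and 0.10 to 0.30 with each library left out). Ccna1, the meiotic A-type cyclin, had 6.14 and 3.26 TPM with CBR-5884 and 4.67 and 3.70 TPM with DMSO, and both DMSO values lay between the CBR-5884 values. It made up 1.47 to 2.69% of the sum with Ccna2, which had a mean of 219 TPM, the A-type cyclin of dividing cells.

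Over the 16 genes that could be tested, 0 passed an adjusted p of 0.05 in either direction with limma, as did 0 of the 14920 genes tested (0.0%), and each of the 16 had an adjusted p of 0.998. The smallest adjusted p of any gene was 0.0965. Of the 16, 9 had a positive and 7 a negative log2 fold change, with a median of 0.07, where the median of all genes tested was −0.01 and 47.2% were positive. The groups did not overlap for 7 of the 16 (43.8%), 4 higher and 3 lower with CBR-5884, beside 13.6% higher and 17.7% lower among all genes tested, or 31.3% in all. The intervals bound how large a difference of TPM + 1 could have been missed. Their median half-width was 0.58 on the log2 scale, compared with 0.37 over all genes tested. For low genes they do not bound the change in TPM itself, since the log2 fold change of Tssk2 was −0.48, and −0.8 with a pseudocount of 0.1. The interval was narrowest for Slc25a31, where it spanned 0.899-fold to 1.2-fold on the TPM + 1 scale, and widest for Tssk2. Leaving out DMSO library 4 gave a median of −0.01 for the 16, and leaving out DMSO library 2 gave 0.12.

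**Figure D4:**
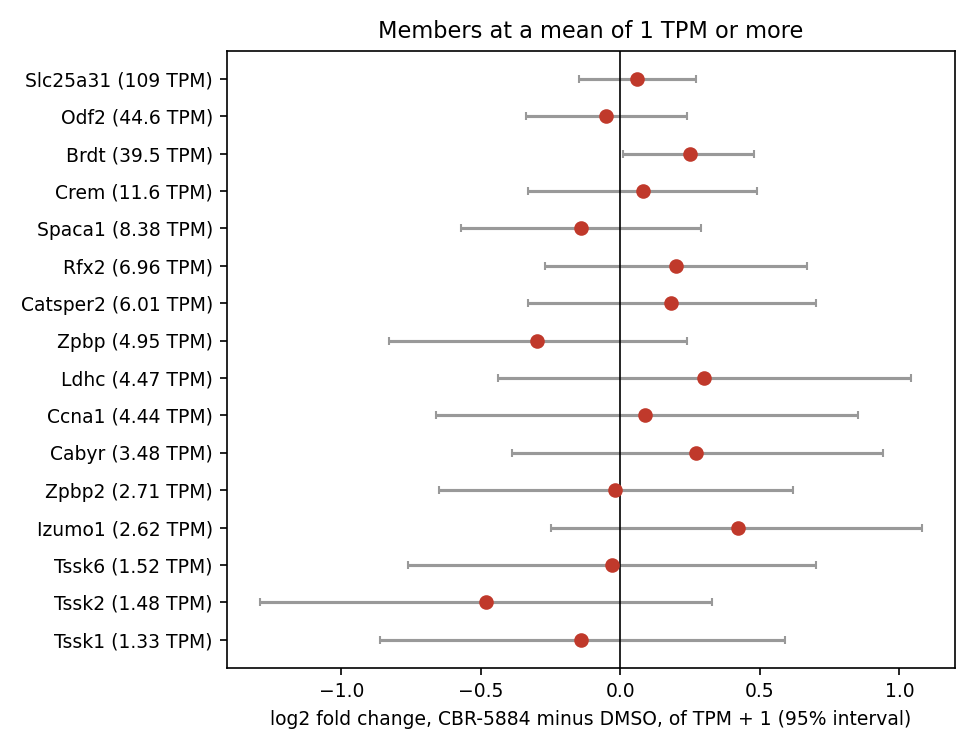
Log2 fold change of TPM + 1, CBR-5884 minus DMSO, of the 16 genes with a mean of at least 1 TPM, ordered by mean level; bars are 95% intervals from limma. All intervals but that of Brdt (0.01 to 0.48) include 0, and the interval of Tssk2 (−1.29 to 0.33) is the widest.

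The promoters of the genes above and below 1 TPM differed in base composition. A promoter was listed for 28 of the 33 genes, 14 on each side of 1 TPM, and where a gene had several the most upstream was used. The promoters of the 14 genes at 1 TPM or more held a median of 19 CpG dinucleotides (2 to 41), against 4 (0 to 30) in the 14 below. The same split was seen among all protein-coding genes with a listed promoter, with a median of 21 in the 10596 at 1 TPM or more and 3 in the 6444 below. Slc25a31 had 22 and Brdt 23 CpG dinucleotides in the windows printed above, while Tnp1 had 6 and Prm1 had 1. Exceptions ran both ways, since Tssk1 with 2 was above 1 TPM, and Spata18 with 30 and Lyzl4 with 20 were listed at 0.

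**Figure D5:**
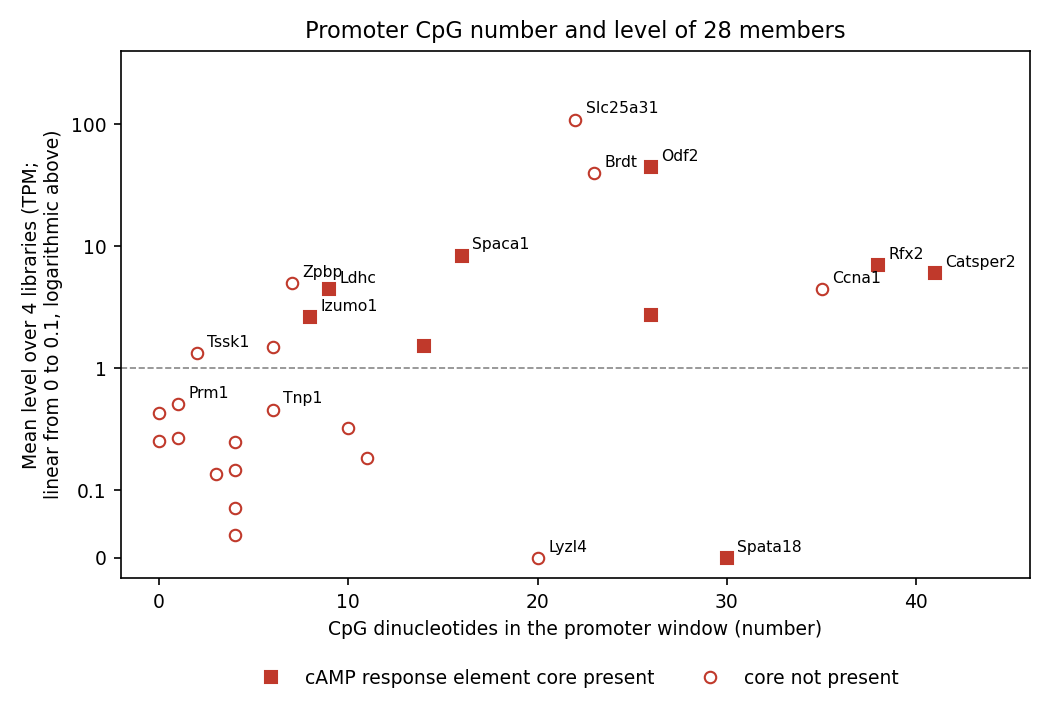
Number of CpG dinucleotides in the 300-base promoter window (x axis) and mean level over the 4 libraries in TPM (y axis) of 28 genes. Filled squares hold the exact letters TGACG, the core of the cAMP response element, on either strand. Open circles do not, but may hold a site that differs by a letter. Of the 14 genes above the dashed line at 1 TPM, 8 are filled squares, and Spata18 is the 1 filled square below it.

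The letters TGACG, on either strand, were found in 8 of the 14 promoters of genes at 1 TPM or more and in 1 of the 14 below. Among all protein-coding genes they were present in 31.2% at 1 TPM or more and 12.1% below, or 24.0% in all. TGACG itself contains a CpG, so this split is not separate from the split in CpG number. Whether it goes beyond the CpG number was not tested. Spaca1 held the core 67 and 57 bases before the start and Ldhc held it 61 and 47 bases before. The full palindrome TGACGTCA, in which the core is read once on each strand, was found in Izumo1 alone, 96 bases before the start, and in 2.33% of all protein-coding promoters. CACGTG was found in Slc25a31 93 bases before the start, in Brdt 78 bases before and in Crisp2 14 bases after, and in 7.98% of all protein-coding promoters. GTTGCC, the letters of an RFX site on either strand, were found in Rfx2 alone, 116 bases before the start, and in 12.7% of all. These are matches of letters in a fixed window, and a site that differs by 1 letter was not counted. In the windows printed above Prm1 holds TGACTTCA and Tnp1 holds TGATGTCA, each 1 letter from TGACGTCA. How many other promoters hold such a site was not counted, so the split in TGACG is not a split in all sites of this kind.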

How the data were processed

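RNA of 4 libraries was analysed, 2 with CBR-5884 and 2 with DMSO, each made from 100 ng of total RNA with a TruSeq kit, per the labels' protocols. Fastp, kallisto and build mm10 are named in the submitters' processing notes; no versions are stated there. Per the file headers the deposited table gives TPM and scaled reads per base, which were handled as signal values since the TPM summed to 966761 to 1002976 per library. One line was kept for each gene and library. The condition is in the library names; which labelled replicate each is was not given.

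Genes with a mean of at least 1 TPM (14920) were tested, two-sided, with limma 3.58.1 (limma-trend, R 4.3.3) on log2(TPM + 1) without covariates, with Benjamini-Hochberg adjustment over all of them and a threshold of 0.05. Fold changes are on that scale and understate changes of low genes. With 2 against 2 libraries an exact permutation test cannot go below p = 0.33, so none was run. A count test had no whole counts to use: the commonest low scaled value of genes with 1 transcript (0.891 to 1.11 by library) was taken as 1 read, and 52.2 to 56.3% of such genes' values below 6 were whole multiples of it within 0.05. Reads are given for genes of 1 transcript only. The fit was run on simulated data as a check of the sign and mean size of added changes, which were placed in higher genes only. That check does not show which changes of low genes the fit could call.

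The genes and lists were chosen with earlier results of these data known. All 34 were to be described, those under 1 TPM mainly by range; of other lists the 3 highest genes are named. Positions, exons and shared words come from GENCODE M21 and promoters from RefSeq, both on GRCm38 (mm10). Whether replicates were separate cultures is stated only as biological replicates, so the spread may be partly technical. Alternatives were other pseudocounts, filters and scalings, the deposited scaled reads, a replicate block, and leaving out each library.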

Additional observations from a re-analysis of the deposited data

How the results depend on the processing

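No setting run with all 4 libraries called any of the genes that entered its test. The count stayed at 0 with pseudocounts of 0.1 and 5, with no filter and with a mean of at least 5 TPM. It also stayed at 0 with both rescalings, with scaled reads per base and with the replicate block. The replicate block and the fits without a library leave fewer degrees of freedom than the main fit, so an absence of calls there adds little. Over all genes 1 was called with scaled reads per base, Hspa1b, named after its value was seen (log2 fold change −1.66, limma adjusted p = 0.0272), and 0 otherwise. The number of genes at 1 TPM or more was 16; it was 17 at a mean of 0.5 TPM, 13 at 2 TPM and 14 when every library had to reach 1 TPM. The median log2 fold change of 0.07 was 0.01 with no filter, where 30 genes entered, and −0.01 to 0.12 over the 4 fits without a library; the cause was not tested. With other settings than a left-out library 118 of 119 single-gene values kept their sign, the exception being Zpbp2 at 0.00 with equal library totals. Sizes of low genes depended on the setting. With scaled reads per base the log2 fold change of Tssk2 went from −0.48 to −0.84 and that of Izumo1 from 0.42 to 0.58. Without a library 10 of 64 changed sign, with ranges of −0.15 to 0.12 for Zpbp2, −0.18 to 0.07 for Odf2, −0.29 to 0.02 for Tssk1, −0.19 to 0.13 for Tssk6, −0.02 to 0.62 for Ldhc, −0.04 to 0.20 for Crem and −0.28 to 0.47 for Ccna1. Only genes whose groups overlapped could change sign in this way. Of the 17 genes under 1 TPM, those whose reads could be recovered had at most 17 reads in a library.

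The library numbers 2 and 4 recur in both conditions, but no label ties them to a shared source. The differences between libraries 2 and 4 correlated at 0.2 across genes between the conditions, and genes are not independent. With this replicate block the calls among the 16 stayed at 0, those over all genes at 0 and the median log2 fold change at 0.07.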
